A study of Bos taurus with 12 samples.

Results

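OOEP, NLRP5, TLE6, KHDC3L and PADI6 encode the core of the subcortical maternal complex, and their expression was examined in the lactating mammary gland (MG) of cows. These 5 genes were chosen because OOEP had stood out on the same arrays by its lower signal in feed-restricted cows, and the other 4 because their proteins join OOEP in that complex. Probes were assigned through the RefSeq accession given with each probe. By this rule OOEP was matched to 1 probe and NLRP5 to 2 probes, whereas no probe was matched to TLE6, KHDC3L or PADI6, whose levels are not analysed here. Hence 2 of the 5 genes, with 3 probes, were measured, among 12639 genes with a matched probe and 43653 probes in all.

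The subcortical maternal complex is a large protein assembly that the oocyte lays down under its surface and hands on to the early embryo. It is known for the maternal control of the early cleavage divisions, the position of the spindle and the cytoplasmic lattices in which maternal proteins are stored. OOEP is a small protein with an atypical KH domain, a fold that elsewhere binds RNA. NLRP5, also called MATER, is an NLR family protein that acts as a scaffold of the complex, TLE6 is a relative of the Groucho co-repressors, KHDC3L is a KH domain protein like OOEP, and PADI6 belongs to the peptidylarginine deiminases and is a component of the lattices. None of these genes is counted among the usual genes of the MG.

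Biopsies came from 12 multiparous Holstein cows in early lactation (24 ± 3 days in milk), each hybridized to an array of its own. The 6 control (CONT) cows had free access to a lactation diet, and the 6 restricted (REST) cows received for 4 d the same ration diluted with barley straw to 48% of dry matter. Every cow of both groups had received 50 µg of lipopolysaccharide (LPS) into a healthy gland of the rear udder on d 3, and the biopsy followed 24 h later, so that no unchallenged gland enters the comparison. Values after ± are SDs over the 6 cows of a group. Whole tissue was used, in which fewer cells of a type and less RNA per cell cannot be told apart.

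The deposited intensities were transformed to log2 and expressed against the 75th percentile of their own array, so that 0 is that percentile, negative values lie below it and a difference of 1 is a factor of 2. The 75th percentile was 577 to 1184 intensity units in CONT and 387 to 1082 in REST, and the Feature Extraction software called 57.6 to 76.0% of the probes in CONT and 63.2 to 78.1% in REST well above background. REST was compared with CONT by limma's moderated test over all probes (two-sided, Benjamini-Hochberg adjusted, threshold 0.05). It called 0 of 43653 probes (0%), while 1143 probes (2.62%) had an unadjusted p under 0.05. The study used another correction (Westfall-Young) on these arrays and reported differentially expressed genes, OOEP among them. The count of 0 thus holds for the correction used here. The arrays lay on 3 slides with 4 arrays each. Slide 1 held 3 CONT arrays and 1 REST array, slide 2 held 1 CONT and 3 REST arrays, while both groups had 2 arrays on slide 3. Milk protein genes such as CSN1S1 and the luminal keratin KRT8 were well above background on all 12 arrays. CONT cow 8027 lay apart from the other CONT cows in the endothelial genes VWF and CDH5 and in the fatty acid carrier FABP4. Values without this cow are given for OOEP, DNMT1, TLE1, H1-8, VWF, FABP4 and the marker lists that it moved most.

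OOEP was well above background in the MG of all 12 cows. Its log2 signal (NM_001077869) was -0.37 at the lowest, -0.020 at the median and 0.56 at the highest in CONT, close to the 75th percentile of the arrays. In REST it was -1.58 at the lowest, -1.36 at the median and -0.81 at the highest. Each REST cow was below each CONT cow, and the nearest cows of both groups were CONT cow 1076 (-0.37) and REST cow 1058 (-0.81). OOEP averaged 0.054 ± 0.34 in the 6 CONT cows, against -1.27 ± 0.30 in the 6 REST cows. The difference of -1.32 (standard error 0.20) corresponds to a 2.50-fold lower signal in REST. Because OOEP was selected by this very difference, it is given as a description without a test. Among all probes, 0.055% had every REST cow below every CONT cow, and nothing is read from that share for a gene chosen in this way.

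**Figure D1:**
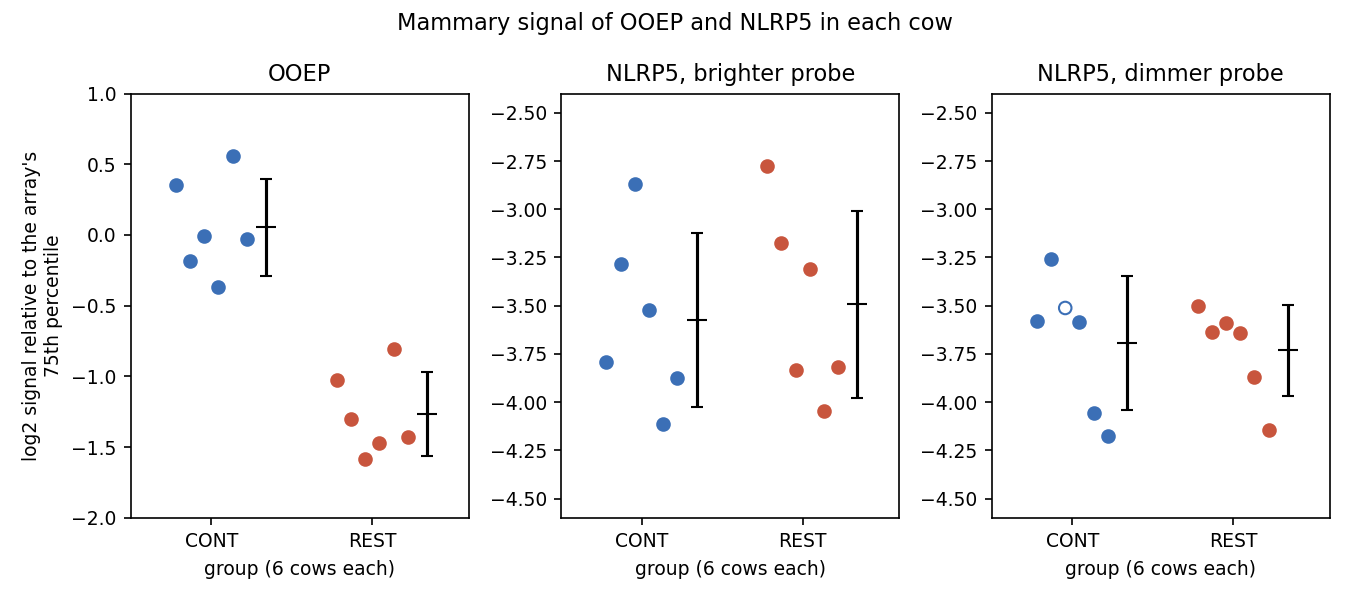
Log2 signal relative to the 75th percentile of the array (vertical axis) of OOEP and of both NLRP5 probes in CONT and REST. Each point is 1 cow, the open point was not well above background, and bars give the mean ± SD (n = 6). The groups are apart for OOEP, with the lowest CONT cow at -0.37 and the highest REST cow at -0.81, and they overlap for both NLRP5 probes.

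The separation of OOEP was present in the intensities before any scaling. Unscaled, the OOEP spot had 710 to 1745 intensity units in CONT (median 796) and 170 to 462 in REST (median 238). The other 5 CONT values lay between 710 and 864, below that of cow 8027 (1745). That array also had the highest 75th percentile, and after scaling cow 8027 remained the highest CONT cow with 0.56. Without cow 8027, the difference in log2 signal was -1.22. REST cows 1058 (462) and 0078 (440) had the highest unscaled values of their group, and relative to the 75th percentile cow 0078 (-1.30) lay amid the other REST cows. The groups did not overlap either after quantile normalization, after normexp background correction, or with the array median in place of the 75th percentile, with differences of -1.33, -1.08 and -1.38.

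The slides held both diets, which permits a comparison within each of them. On slide 1 the REST mean and on slide 2 the CONT mean rest on 1 cow each. The REST mean of OOEP was below the CONT mean by -1.11 on slide 1, by -1.31 on slide 2 and by -1.60 on slide 3. The largest difference was thus found on slide 3, where both CONT cows had the highest OOEP signals of the group (0.36 and 0.56). REST means varied less between slides, from -1.35 on slide 2 to -1.14 on slide 3. With slide as a block in the model, the difference was -1.37 (standard error 0.19).

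**Figure D2:**
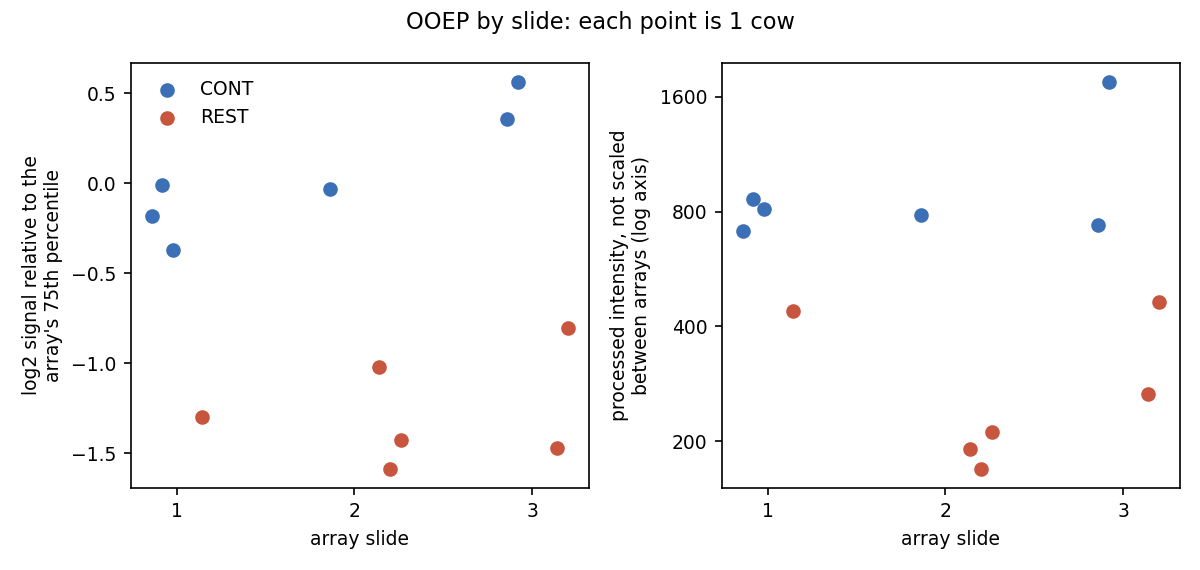
OOEP on each of the 3 array slides (horizontal axis), as log2 signal relative to the 75th percentile of the array (left) and as unscaled intensity on a log axis (right). Each point is 1 cow, with CONT in blue and REST in red. On every slide and on both scales, each REST cow is below each CONT cow.

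NLRP5 (NM_001007814), the scaffold protein of the complex, was also detected, at low intensities. Its brighter probe exceeded background clearly in all 12 cows, and its dimmer probe on 5 CONT and 6 REST arrays, the exception being CONT cow 1024. Unscaled, the brighter probe had 41.6 to 119 intensity units in CONT and 35.7 to 120 in REST. The log2 signal of the brighter probe was -4.11 at the lowest, -3.66 at the median and -2.87 at the highest in CONT. In REST it was -4.05, -3.57 and -2.78, so that the ranges of both groups nearly coincided. It averaged -3.58 ± 0.45 in the 6 CONT cows, against -3.49 ± 0.49 in the 6 REST cows. The difference of 0.083 (standard error 0.26) was smaller than the spread between cows and did not pass the threshold (limma, Benjamini-Hochberg adjusted p = 1.00). Its 95% interval reached from -0.49 to 0.66.

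The dimmer NLRP5 probe had a log2 signal of -4.17 to -3.26 in CONT (median -3.58) and of -4.14 to -3.50 in REST (median -3.64). Here too the cows of both diets overlapped over most of the range. The difference was -0.036 (standard error 0.19; limma, Benjamini-Hochberg adjusted p = 1.00), with a 95% interval from -0.44 to 0.37. The sign of both differences changed when single cows were left out. The difference between both genes was not tested, since OOEP was selected by its value. Within slides, the brighter probe differed by 0.051, 0.40 and 0.27 on slides 1, 2 and 3, and the dimmer probe by -0.18, 0.43 and 0.064. The means of the brighter probe were highest on slide 1 in both groups (-3.22 in CONT and -3.17 in REST). However, slide 1 held only 1 REST cow and slide 2 only 1 CONT cow, and the highest REST cow was 0049 on slide 2 (-2.78). Slide 1 also held the arrays with the brightest negative control spots. Those were the arrays of cows 1024 (median 17.3 intensity units) and 0078 (15.8), beside 3.44 to 9.88 on the other 10 arrays. The part of this background in the NLRP5 signal was not tested.

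The probes were then compared over the cows. After the mean of each group was subtracted, their log2 signals had r = 0.68 (exact permutation within groups, p = 0.0205, adjusted p = 0.0614 over 3 relations; n = 12 cows) and rho = 0.69 (exact permutation within groups, p = 0.0279, adjusted p = 0.0836). Without the 2 cows farthest from their group mean in the brighter probe, r was 0.68, so that the value did not rest on these 2 cows. The cows farthest out in the dimmer probe were not left out. Neither relation passed the adjusted threshold. For OOEP no relation with NLRP5 passed the test. Its r was -0.27 with the brighter probe (exact permutation, p = 0.404, adjusted p = 0.408, with rho = -0.20, p = 0.575 and adjusted p = 0.698). With the dimmer probe r was -0.29 (exact permutation, p = 0.408, adjusted p = 0.408, with rho = -0.14, p = 0.698 and adjusted p = 0.698). Without the 2 cows farthest from the median of OOEP, these values changed sign to 0.26 and 0.033. The permutation did not take the slide into account, and all 4 cows of slide 1 were above their group mean in both NLRP5 probes. After group and slide means were removed together, r was 0.56 between the NLRP5 probes, and 0.16 and -0.12 between OOEP and the brighter and the dimmer probe (descriptions, with no test).

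To place OOEP beside other genes of the female germ line, a list of 37 oocyte and early embryo gene names was examined, of which 16 were matched to probes. Each gene is represented by its brightest probe, and detected means well above background. No gene of the list passed the threshold in either direction (limma, Benjamini-Hochberg), and 0 of 16 had an unadjusted p under 0.05, against 2.64% of all named genes. Of these 16 genes, 8 had a higher and 8 a lower mean in REST, with a median difference of 0.049. The 8 lower genes include all 5 that were well above background on no array, and 3 other genes (ZP2, ZP4 and KPNA7) were so in 1 group only, so that nothing is read from the split. Of all named genes, 56.5% had a lower mean in REST and their median difference was -0.034. The oocyte growth factors GDF9 and BMP15, the germ cell RNA regulators DAZL and DDX4, and DPPA3, a protector of maternal DNA methylation, were called well above background on no array. ZP3, a zona pellucida glycoprotein, ZAR1L, the kinase AURKC and the receptor KIT, which other cells also express, were well above background on all 12 arrays.

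Among the oocyte genes detected on at least 6 arrays, the 3 with the largest differences had wide spreads. NLRP9, another NLR gene of the oocyte, was detected on 3 arrays of CONT and 4 of REST and averaged -4.78 ± 0.96 in CONT against -4.28 ± 0.95 in REST, which differ by 0.50 (standard error 0.50). ZAR1, a maternal RNA-binding protein, was detected on 5 CONT and 6 REST arrays, and its difference was 0.44 (standard error 0.38). Its CONT cows ranged from -3.64 to -1.84 and its REST cows from -3.57 to -1.76. H1-8, the linker histone of the oocyte, was detected on 4 arrays of each group, with a difference of 0.17 (standard error 0.39). For each of these genes the cows of both groups overlapped. The difference of H1-8 was -0.047 without CONT cow 8027 and 0.42 without REST cow 1058, so that its sign rested on single cows. Leaving out single cows, the difference of ZAR1 ranged from 0.27 without CONT cow 9040 to 0.69 without REST cow 1058, and that of NLRP9 from 0.21 to 0.79 without the same cows. OOSP2, a secreted oocyte protein, was detected on 1 CONT and 4 REST arrays, and its mean log2 signals of -5.77 ± 1.56 in CONT against -4.41 ± 1.54 in REST had a wide spread. It was named after its values were seen.

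Of 8 genes whose proteins are linked to the maternal complex or to genomic imprints, UHRF1, DNMT1 and TRIM28 were matched to probes. All of them were well above background on 12 arrays and none passed the threshold. An unadjusted p under 0.05 was found for 0 of 3, against 2.64% of all named genes. UHRF1, which brings the maintenance methyltransferase to replicated DNA, differed by 0.090 (standard error 0.29). DNMT1, that methyltransferase, differed by -0.22 (standard error 0.18). TRIM28, a co-repressor that guards imprints, averaged 3.82 ± 0.26 in CONT against 3.62 ± 0.11 in REST, which differ by -0.20 (standard error 0.15). Leaving out single cows, UHRF1 ranged from -0.10 without REST cow 0078 to 0.21 without REST cow 0049. The difference of DNMT1 was -0.12 without CONT cow 8027, and that of TRIM28 was -0.12 without CONT cow 1076.

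**Figure D3:**
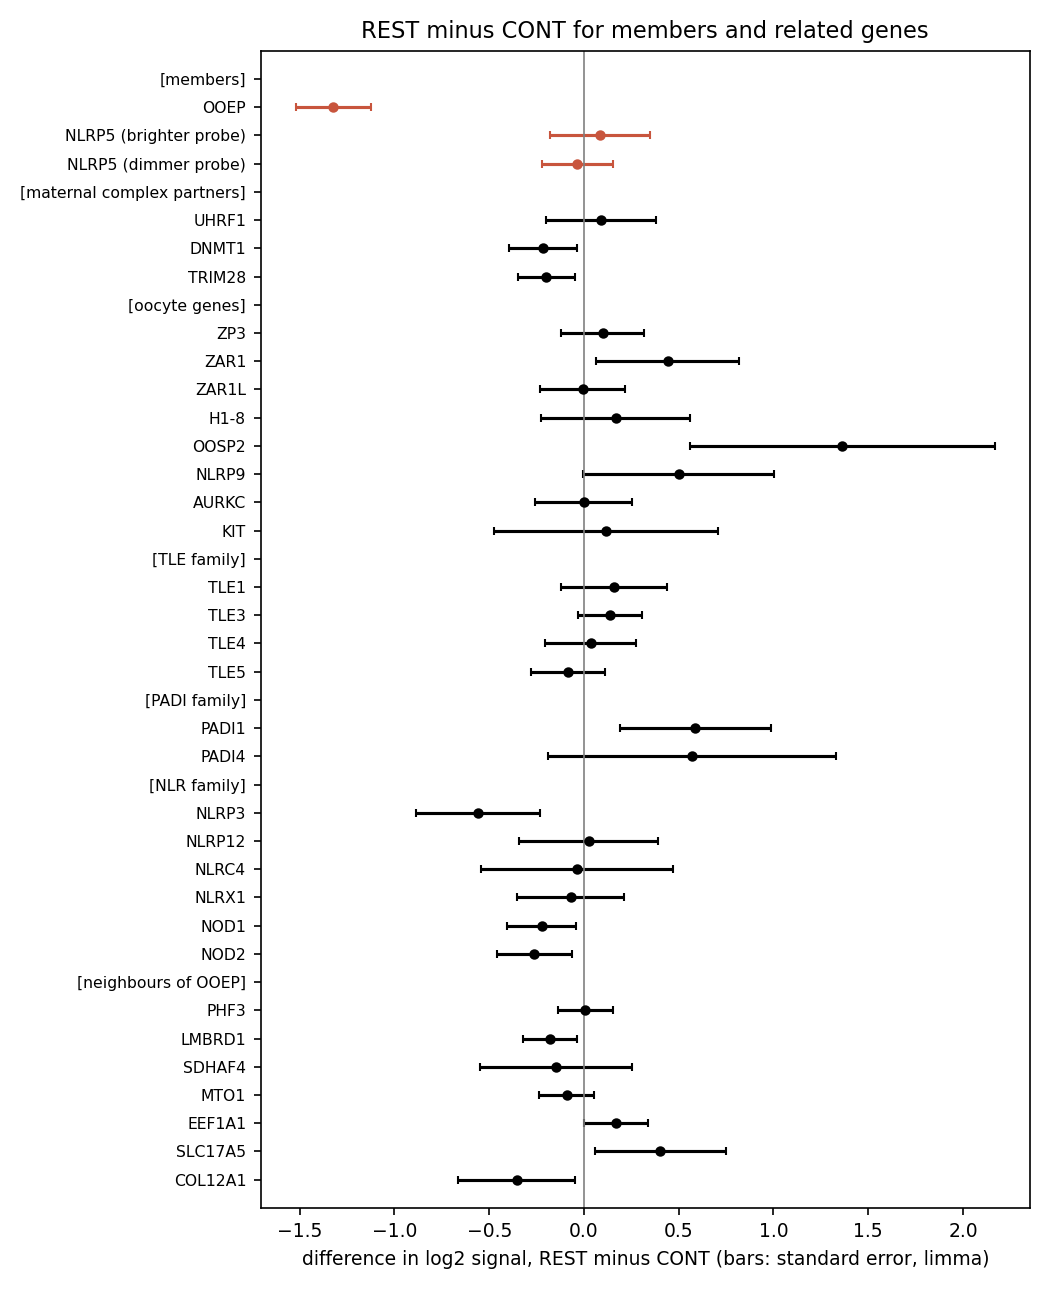
Difference in log2 signal between REST and CONT (horizontal axis, REST minus CONT) with its standard error from limma, for OOEP, both NLRP5 probes, and the genes of each list and neighbours of OOEP that were well above background on at least 1 array of each group. OOEP lies at -1.32, and the NLRP5 probes lie at 0.083 and -0.036.

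The relatives of the members in the same protein families gave the following values, with no gene past the threshold. None had an unadjusted p under 0.05, against 2.64% of all named genes. The Groucho family genes TLE1, TLE3, TLE4 and TLE5, relatives of TLE6, were detected on all 12 arrays and differed by -0.084 (TLE5) to 0.16 (TLE1). Both ends rested on single cows, as TLE1 differed by 0.0021 without CONT cow 8027 and TLE5 by 0.019 without REST cow 1058. PADI4, the deiminase of neutrophils, was detected on all 12 arrays, with means of -1.80 ± 1.51 in CONT against -1.23 ± 1.41 in REST, which differ by 0.57 (standard error 0.76). PADI1, an epithelial deiminase, was detected on 3 CONT and 4 REST arrays and differed by 0.59 (standard error 0.40). Leaving out single cows, PADI4 ranged from 0.26 without REST cow 1058 to 1.05 without REST cow 0049, and PADI1 from 0.26 without REST cow 0049 to 0.82 without REST cow 0078. In the NLR family 6 of 13 genes were matched, of which 5 had a lower mean in REST, as had 56.5% of all named genes. The bacterial peptidoglycan sensors NOD1 and NOD2 differed by -0.22 (standard error 0.18) and -0.26 (standard error 0.20), and the mitochondrial NLRX1 by -0.070 (standard error 0.28). Without REST cow 0049 the difference of NOD1 was -0.11, and that of NLRX1 changed sign to 0.10. NLRP3, the inflammasome sensor, was detected on 2 CONT arrays and 1 REST array. No gene of the KHDC family other than OOEP was matched to a probe.

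OOEP and KHDC3L are direct neighbours in the RefSeq gene table, and DDX43 follows OOEP on the other side. Neither of these direct neighbours had a matched probe. The 4 nearest genes with probes on either side were therefore compared, and 0 of 8 passed the threshold, as did 0% of all probes. An unadjusted p under 0.05 was found for 0 of 8, against 2.64% of all named genes, so that nothing is read from these counts. Of these 8 genes, 4 had a higher and 4 a lower mean in REST, where 56.5% of all named genes had a lower one. MTO1, a mitochondrial tRNA modification enzyme with 4 listed genes between it and OOEP, differed by -0.092 (standard error 0.14). The translation elongation factor EEF1A1 differed by 0.17 (standard error 0.17), the lysosomal sialic acid transporter SLC17A5 by 0.40 (standard error 0.35) and the collagen COL12A1 by -0.36 (standard error 0.31). On the other side, SDHAF4, LMBRD1 and PHF3, with 19 to 44 listed genes between them and OOEP, differed by -0.15, -0.18 and 0.0072. The difference of SDHAF4 was 0.17 without REST cow 1018, that of PHF3 was -0.037 without CONT cow 1076, and that of SLC17A5 was 0.20 without REST cow 0049. That of MTO1 was -0.023 without REST cow 1058. COL12A1 ranged from -0.56 without CONT cow 0015 to -0.22 without REST cow 0049. EEF1A1 ranged from 0.11 without REST cow 0049 to 0.26 without REST cow 0078. B3GAT2 was detected in 2 REST cows and in no CONT cow, and no fold change is given for it.

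Genes that varied like OOEP within the diets were sought among the 8999 named genes well above background on all 12 arrays, by Pearson's r between log2 signals after the mean of each group was subtracted (n = 12 cows). These genes were picked by r, which ranged from -0.77 to 0.83 with a median of -0.021, and r is given as a description. The highest values were those of SNTB2 (0.83), a syntrophin of the dystrophin complex, NTHL1 (0.82), a DNA glycosylase, LOC509810 (0.78), CXXC1 (0.77), which binds unmethylated CpG, and SF3B1 (0.76), a core splicing factor. Between diets, the differences of these 5 genes lay between -0.064 and 0.14. SNTB2 differed by 0.14 (standard error 0.18), NTHL1 by -0.064 (standard error 0.13), LOC509810 by 0.047 (standard error 0.21), CXXC1 by -0.0013 (standard error 0.14) and SF3B1 by 0.031 (standard error 0.14). The lowest values were those of KLHL41 (-0.77), ZDHHC19 (-0.75), ITGB3 (-0.74), B3GALT2 (-0.73) and RAMAC (-0.73). The differences of these genes between diets were -0.086, -0.0076, 0.42, 0.071 and -0.27 in the same order, and none passed the threshold (limma, Benjamini-Hochberg). Of the genes picked by r, only ITGB3 had an unadjusted p under 0.05 (limma), as had 2.64% of all named genes. For NTHL1 the relation was closer in CONT (r = 0.98, n = 6 cows) than in REST (r = 0.54, n = 6 cows), whereas for CXXC1 it was 0.69 in CONT and 0.98 in REST. The difference between the diets in r was not tested. Slide means were not removed for these r. CONT cows 0015 and 8027, both on slide 3, were the highest CONT cows for OOEP, SNTB2, NTHL1, LOC509810 and SF3B1, but not both for CXXC1. They were the lowest CONT cows for KLHL41, ZDHHC19, ITGB3 and RAMAC, but not both for B3GALT2. The part of the slide in these relations was not tested.

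**Figure D4:**
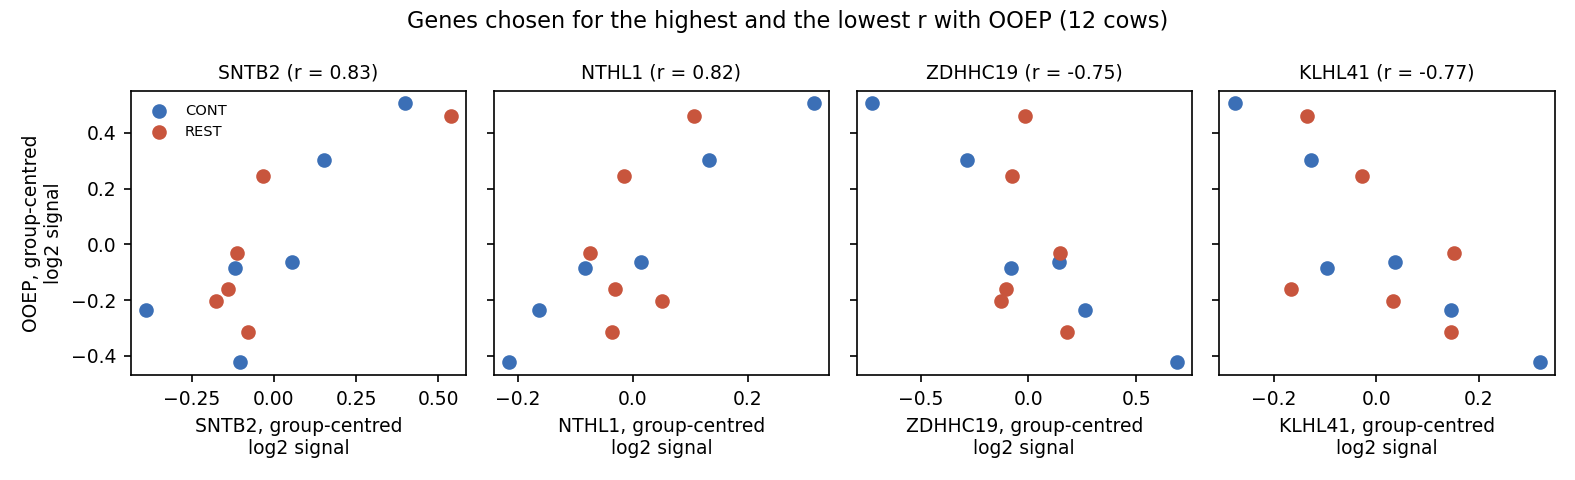
Group-centred log2 signal of OOEP (vertical axes) against that of the 2 genes with the highest and the 2 genes with the lowest r (horizontal axes). Each point is 1 of 12 cows, with CONT in blue and REST in red. The genes were selected for r, which was 0.83 for SNTB2, 0.82 for NTHL1, -0.75 for ZDHHC19 and -0.77 for KLHL41.

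Markers of the cell types of the MG were read beside OOEP. No marker passed the threshold (limma, Benjamini-Hochberg). Of all named genes, 56.5% had a lower mean in REST. Of 6 fibroblast markers, 5 had a lower mean in REST (median difference -0.63, but -0.35 with slide as a block and -0.43 without REST cow 0049). COL1A1, COL1A2 and LUM had an unadjusted p under 0.05, as had 2.64% of all named genes. Lumican (LUM), a matrix proteoglycan, averaged 1.62 ± 0.31 in CONT against 0.78 ± 0.50 in REST, with overlapping cows. The signal summed over the fibroblast markers, in multiples of the 75th percentile, was 49.5 to 66.9 in CONT and 23.0 to 69.4 in REST, and these ranges overlapped. All 5 endothelial markers had a higher mean in REST (median difference 0.50; summed signal 2.42 to 9.85 in CONT and 7.67 to 13.4 in REST), and the median was 0.15 without CONT cow 8027. Of 10 leukocyte markers, 5 were higher and 5 lower (median difference 0.010; summed signal 37.0 to 56.2 in CONT and 45.6 to 61.3 in REST). Of these and the endothelial markers, CD3D (0.60) and VWF (0.79) had an unadjusted p under 0.05, beside the same 2.64% of all named genes. Without CONT cow 8027 the difference of VWF was 0.50.

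The medians of the other marker lists depended on single cows. Of 8 luminal epithelial markers, 6 had a higher mean in REST (median difference 0.25, but 0.065 without CONT cow 8027 and -0.025 after quantile normalization; summed signal 1574 to 4486 in CONT and 2146 to 6037 in REST). The higher markers include the very bright milk protein genes CSN1S1, CSN1S2, CSN3, LALBA and PAEP, with group means from 8.85 to 9.55. Saturation of these probes was not tested, so that no direction is read from this list or its summed signal. The 5 myoepithelial markers had a median difference of -0.18, which was 0.072 without CONT cow 0055 (summed signal 78.9 to 202 in CONT and 72.9 to 115 in REST). The 5 neutrophil markers had a median difference of 0.19, which ranged from -0.18 without REST cow 1058 to 0.89 without REST cow 0049 (summed signal 17.1 to 167 in CONT and 4.04 to 190 in REST). The 4 adipose markers had a median difference of 0.18, which ranged from -0.0030 without CONT cow 9040 to 0.35 without CONT cow 8027 (summed signal 7.43 to 164 in CONT and 100.3 to 242 in REST). Every marker was well above background on at least 1 array of each group. Within the adipose list FABP4 differed by 1.20, and by 0.59 without CONT cow 8027. The other adipose genes, which were detected on fewer arrays, were the hormone leptin (LEP, -1.02, detected on 4 CONT arrays and 1 REST array) and the lipid droplet proteins PLIN1 (0.25) and CIDEC (0.11). The part of the cell types in the difference of OOEP was not tested.

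**Figure D5:**
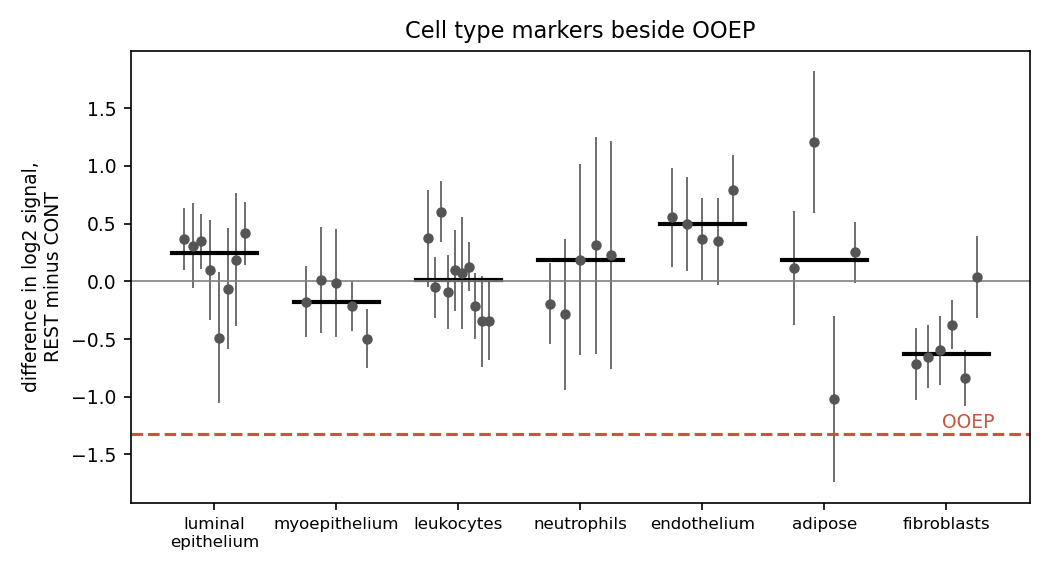
Difference in log2 signal between REST and CONT (vertical axis, REST minus CONT) for each matched marker of 7 cell types, with its standard error. Thick lines are the medians of the lists, from -0.63 for fibroblasts to 0.50 for endothelium, and the dashed line is OOEP at -1.32.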

How the data were processed

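The authors labelled 100 ng of total RNA per cow with Cy3, hybridized single-color Agilent bovine arrays and extracted spot intensities with Feature Extraction 11.0.1.1. The deposited intensity values are corrected for background but not normalized between arrays, and the deposited series matrix holds the same intensity values. Per the file headers, flags mark outlier spots and spots well above background (other values).

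Control spots were removed, spots marked as outliers were set to missing, log2 values were centred on the 75th percentile of each array and averaged over the spots of a probe, and REST was compared with CONT with limma 3.58.1 (R 4.3.3) over all probes without a filter. The Westfall-Young correction of the study, which draws other splits of the cows, was replaced by Benjamini-Hochberg. Accessions were matched to the RefSeq table (ARS-UCD2.0) without their version and named 26832 probes. The arrays are annotated on another assembly, so that no positions are given. Members, lists and tests were chosen with earlier results of these data known. Named are all member probes, the 3 genes with the largest differences per list (cell type markers aside) among those detected on at least 6 arrays, 4 neighbours per side, and the 5 genes with the highest and the lowest r; single marker and list genes named besides were chosen after their values were seen. The procedure was tested on simulated data, and figures were drawn with matplotlib 3.10.9. The number of arrays limits the precision. Alternatives are given at the end.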

Additional observations from a re-analysis of the deposited data

Results flagged for a closer look

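Among 110 groups of 6 cows (55 probes in each diet), 10 had a highest or lowest cow set apart by Dixon's gap test, where chance gives 5.5. The 55 probes are those of the members, the neighbours, the genes chosen by r and the genes with the largest differences per list. The cell type marker lists are included, with markers not named above. No group of OOEP or NLRP5 was among the 10. CONT cow 8027 was the distant cow in 5 groups, with a log2 signal of 0.12 for VWF, -4.39 for CDH5 and 2.87 for FABP4, all below the other CONT cows, and of 1.86 for PHF3 and -1.84 for MTO1, both above them. REST cow 1058 was the lowest of its group for ZAR1 (-3.57) and H1-8 (-5.73) and the highest for SNTB2 (3.51). REST cow 1018 was low for SDHAF4 (-1.60), and CONT cow 0015 was low for COL12A1 (-0.70).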

How the results depend on the processing

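The difference of OOEP kept its sign under all 21 alternatives run, between -1.74 and -1.08. The series matrix values, the removal of dim probes, the kept outlier spots and an intensity trend in the moderated test could not move it. They left it at -1.32. Nor could leaving out a single cow change the sign, since each REST cow was below each CONT cow. The difference was -1.08 with normexp and -1.22 to -1.42 with each cow left out in turn. Without any scaling between arrays, an alternative chosen after the data were seen, it was -1.74, while the median of all probes was then at -0.43, which leaves -1.30 relative to that median. The brighter NLRP5 probe changed sign with normexp (-0.057), without scaling (-0.33) and when single cows were left out (-0.061 to 0.22). The dimmer NLRP5 probe changed sign with slide as a block (0.099) and when single cows were left out (-0.13 to 0.051). The lowest adjusted p of either was 0.54 (limma, Benjamini-Hochberg). No probe and no gene of the lists was called in any of the 21 alternatives with a test over all probes. The count of probes with an unadjusted p under 0.05 was 377 with normexp, 702 when dim probes were removed beforehand and 26678 were tested, and 825 to 1739 with each cow left out, the highest without REST cow 1058. The cause was not tested. The median of the oocyte list changed sign in 5 of 21 alternatives (-0.042 to 0.17), that of the neutrophil list in 5 (-0.18 to 0.89), that of the leukocyte list in 9 (-0.13 to 0.14) and that of the adipose list in 3, among them -0.081 with normexp. The medians of the TLE family (-0.043 to 0.19), luminal (-0.025 to 0.42) and myoepithelial lists (-0.26 to 0.072) also changed sign, in 2, 1 and 1 alternatives. Of the genes named outside the marker lists, 4 of 14 list genes, 2 of 8 neighbours and 5 of 10 genes chosen by r changed sign when single cows were left out. Without dim probes FABP4 alone was left of the adipose list, at 1.20. The values of single genes with cows left out and the r without slide means were likewise chosen after the data were seen. No paired analysis was possible because the cows carry no numbers that both diets share. NLRP5 and several oocyte genes were dim, which limits the precision of their differences.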
